A study of Mus musculus with 12 samples.

Results

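The genes described here are 8 epithelial serine proteases and their inhibitors: the proteases Tmprss11e, St14, Prss8, Prss22, Tmprss2 and Tmprss4 and the inhibitors Spint1 and Spint2. They were taken by gene symbol from the 19937 genes that have a probe set with a single symbol, and each of the 8 had 1 such probe set. Tmprss11e and Prss22 were chosen by their measured values, a large difference in log2 expression between the cell lines, so these values are given as a description with no test. The other 6 were chosen as relatives and regulators of these proteases, with earlier results of these data known, and they were tested.

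Trypsin-like proteases anchored in or secreted at the surface of epithelial cells cut receptors, channels, matrix and other proteases in the space around the cell. They are made as inactive precursors and switched on by cleavage, so one protease can activate the next. Matriptase (St14) and the GPI-anchored prostasin (Prss8) act as such a pair in many epithelia, and the Kunitz-type membrane inhibitors Spint1 (HAI-1) and Spint2 (HAI-2) hold them in check.

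RNA was measured in 12 samples of 4T1, a mouse mammary epithelial carcinoma line of BALB/cfC3H background, on Affymetrix Mouse Gene 1.0 ST arrays. The groups were 4 stable lines with 3 arrays each, named control, FL, mutB1 and ΔSAP. The series set out to find targets of Mkl1 (now Mrtfa), a coactivator of serum response factor whose entry into the nucleus depends on actin. The labels do not spell out the constructs, and from what is known of the study FL is read here as the full-length protein, mutB1 as a form altered in the B1 region through which Mkl1 binds serum response factor, and ΔSAP as a form without the SAP domain, a putative DNA-binding motif. All 4 lines were kept in 0.03% serum for 48 h before RNA was taken. Each construct is represented by 1 line, so a difference between constructs cannot be told apart from a difference between lines, and p-values measure the spread between cultures of a line. The sources used here do not state the vector of the control line, or whether a line was a clone or a pool.

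Values are log2 expression values after RMA, the authors' normalization, and a difference of 1 is a 2-fold difference. The array medians lay between 6.35 and 6.45, and arrays of a line correlated at r = 0.995 to 0.997. Mrtfa signal was 9.27 ± 0.01 in the control line (SD, n = 3), 12.08 ± 0.06 in FL, 11.29 ± 0.11 in mutB1 and 11.92 ± 0.04 in ΔSAP. The mutB1 line thus also had less Mrtfa signal than the other construct lines. Whether this probe set reads the native gene and each construct alike is not known here. The epithelial keratins Krt8 and Krt18 had line means of 12.55 or more in every line. The other epithelial markers examined, Krt7, Krt19, Cdh1, Epcam, Cldn3 and Cldn4, were lower in mutB1 than in control. The mutB1 means were 6.18 for Krt19 and 6.41 for Epcam. Of the markers of other cell types, 6 of 7 leukocyte markers (all but Cd68) and all 6 mast cell markers, which include the tryptase genes Tpsab1 and Tpsb2, passed the test in none of the comparisons, and 2 of 6 endothelial markers (Eng and Tek) passed in some. Of all probe sets, 31.7% passed in at least 1. A test between lines does not show whether a cell type is present. The line means were 11.32 to 11.82 for Eng, 8.53 to 9.58 for Cd68 and 4.63 to 4.83 for Tek. Those of the mast cell markers were 4.10 to 6.01. As a guide to the signal of genes not expected in these cells, 17 tissue-restricted genes such as Alb and Ins2 had line means from 3.24 to 6.51. Probe sets differ in affinity, so this range is a rough guide, and levels of different genes are not ranked here.

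Tmprss11e (probe set 10531022) encodes DESC1, a transmembrane serine protease of squamous and glandular epithelia. Its log2 values were 7.90, 7.58 and 7.63 in the control line and 10.16, 10.08 and 10.16 in FL. They were 7.09, 6.96 and 6.95 in mutB1 and 11.46, 11.51 and 11.42 in ΔSAP. No line overlapped another, and the order from high to low was ΔSAP, FL, control and mutB1. The ΔSAP mean was 22.2-fold above the mutB1 mean and 13.6-fold above control, and the FL mean was 8.80-fold above mutB1 and 5.39-fold above control. The ΔSAP line also stood above FL, by 2.52-fold. The mutB1 mean of 7.00 ± 0.08 (SD, n = 3) was 1.63-fold under the control mean of 7.70 ± 0.17 and remained above the range of the tissue-restricted genes.

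Prss22 (probe set 10448409) encodes tryptase epsilon, a trypsin-like protease that is secreted rather than membrane-anchored and is known to activate the urokinase precursor. The control arrays read 7.38, 7.42 and 7.39 and the FL arrays 7.45, 7.43 and 7.49. The mutB1 arrays were the lowest, at 6.83, 6.87 and 6.88, and the ΔSAP arrays stood far above the rest, at 10.06, 10.12 and 10.04. Prss22 therefore separated ΔSAP from the other 3 lines, whereas Tmprss11e separated both FL and ΔSAP from control and mutB1. The ΔSAP mean of 10.07 ± 0.04 was 6.14-fold above FL, 6.41-fold above control and 9.27-fold above mutB1. FL exceeded control by only 0.06 ± 0.04 (SE) on the log2 scale, although their arrays did not overlap, and by 0.01 after median centring of the arrays.

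**Figure D1:**
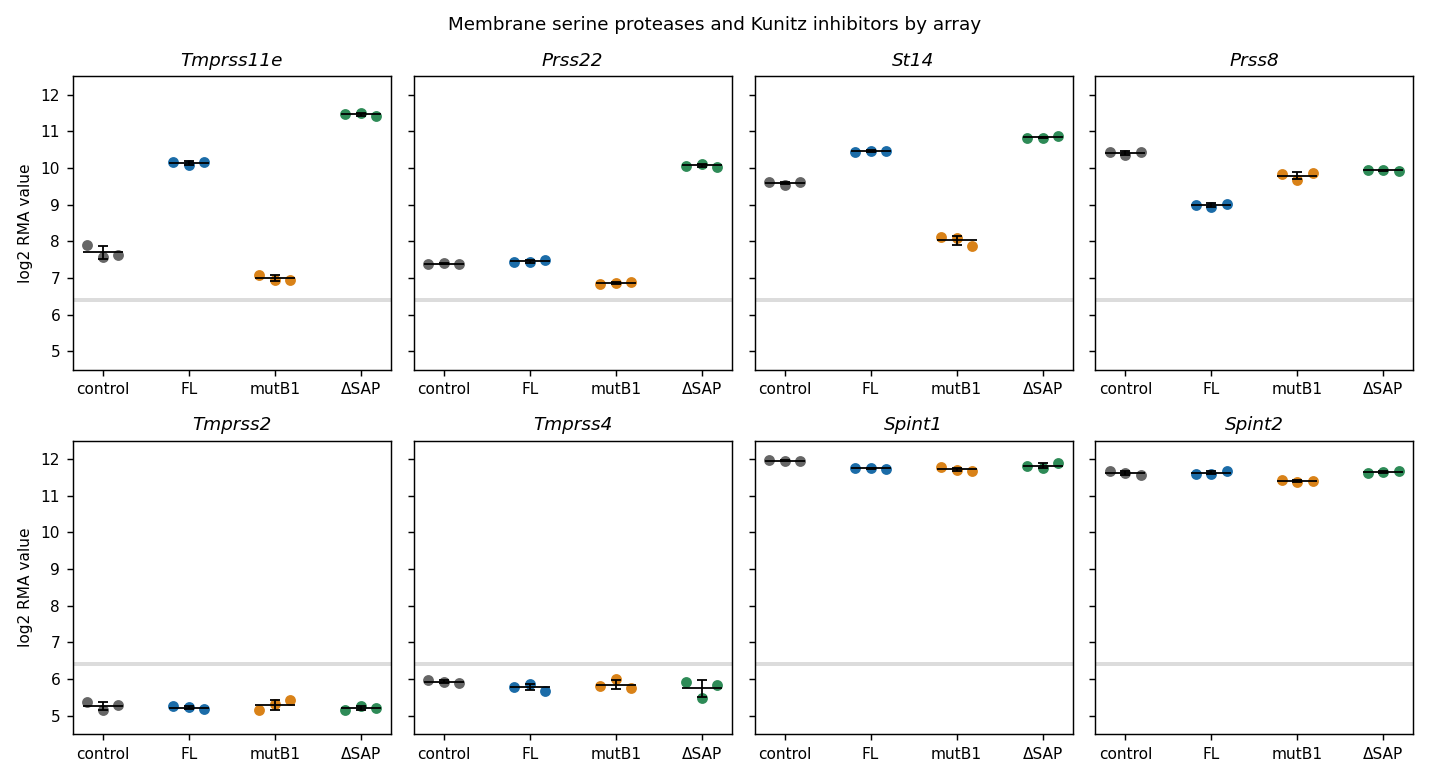
Log2 RMA value of each of the 8 genes on the 12 arrays, with points for arrays, the black line for the mean and the bar for the SD of 3 arrays per line; the grey band spans the array medians, 6.35 to 6.45. Tmprss11e is high in FL and ΔSAP, Prss22 in ΔSAP alone, St14 is lowest in mutB1, Prss8 is lowest in FL, and both inhibitors vary by at most 0.24 between line means.

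St14 (probe set 10592001), which encodes matriptase, differed between all 4 lines. Its values were 9.61, 9.55 and 9.62 in control and 10.44, 10.47 and 10.47 in FL. The mutB1 arrays read 8.12, 8.08 and 7.89 and the ΔSAP arrays 10.83, 10.83 and 10.86. The lines did not overlap, and their order from high to low was that of Tmprss11e. In limma, FL exceeded mutB1 by 2.44 ± 0.06 (SE, adjusted p = 1.42e-09), a 5.41-fold difference, and control by 0.87 ± 0.06 (adjusted p = 1.13e-06). The mutB1 line was below control by a change of -1.57 ± 0.06 (limma adjusted p = 1.87e-08). ΔSAP exceeded control by 1.25 ± 0.06 (limma adjusted p = 1.4e-07) and mutB1 by 2.81 ± 0.06 (adjusted p = 3.6e-10), which is 7.03-fold. The smallest of the 6 differences was that between FL and ΔSAP, with FL minus ΔSAP at -0.38 ± 0.06 (limma adjusted p = 0.000936).

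Prss8 (probe set 10568332), the prostasin gene, followed another order. The control arrays were the highest, at 10.45, 10.35 and 10.44, and the FL arrays the lowest, at 9.00, 8.93 and 9.03. Between them lay mutB1, at 9.83, 9.69 and 9.86, and ΔSAP, at 9.95, 9.94 and 9.93. All 3 construct lines were thus below control: by -1.42 ± 0.05 in FL (SE, limma adjusted p = 2.09e-08), by -0.62 ± 0.05 in mutB1 (adjusted p = 1.53e-05) and by -0.47 ± 0.05 in ΔSAP (adjusted p = 9.98e-05). The fall in FL was 2.68-fold. FL was also below mutB1, at -0.81 ± 0.05 (limma adjusted p = 1.61e-06), and below ΔSAP, at -0.95 ± 0.05 (adjusted p = 2.08e-06). The mutB1 and ΔSAP lines did not differ past the threshold in limma (0.15 higher in ΔSAP, 95% interval 0.03 to 0.27, adjusted p = 0.0665).

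St14 and Prss8 therefore moved apart in FL and ΔSAP, where St14 rose over control and Prss8 fell, and both fell in mutB1. The log2 difference between St14 and Prss8 within an array, set to 0 at the control mean, was 2.29 ± 0.06 in FL (SD, n = 3), -0.95 ± 0.19 in mutB1 and 1.72 ± 0.03 in ΔSAP. Its ranges were -0.02 to 0.02 in control, 2.26 to 2.36 in FL, -1.16 to -0.79 in mutB1 and 1.69 to 1.75 in ΔSAP, with no overlap. An exact two-sided permutation test gave p = 0.1 for each of the 6 pairs of lines (0.1 after Benjamini-Hochberg adjustment), the smallest value that 3 arrays against 3 allow. This contrast between the 2 genes was chosen after their values were seen.

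Spint1 and Spint2, the inhibitors of matriptase and prostasin, had high signal in every line and changed little. Spint1 (probe set 10474936) read 11.97, 11.96 and 11.94 in control, 11.76, 11.76 and 11.74 in FL, 11.78, 11.71 and 11.68 in mutB1 and 11.83, 11.76 and 11.88 in ΔSAP. Every construct array was below every control array, and the 3 construct lines overlapped each other. In limma, FL differed from control by -0.20 ± 0.04 (adjusted p = 0.00356) and mutB1 by -0.23 ± 0.04 (adjusted p = 0.00212), about 1.15-fold and 1.17-fold. The change in ΔSAP, -0.13 ± 0.04, did not pass (limma adjusted p = 0.041). The FL call rested on all 6 arrays, since leaving out any 1 array of FL or control raised the limma adjusted p to between 0.0108 and 0.0161, and the mutB1 call ended without control replicate 1 (0.0107) or mutB1 replicate 3 (0.0112).

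Spint2 (probe set 10561712) was lowest in mutB1, at 11.44, 11.39 and 11.40. It read 11.67, 11.63 and 11.56 in control, 11.60, 11.60 and 11.68 in FL and 11.62, 11.65 and 11.67 in ΔSAP, and these 3 lines overlapped. In limma the mutB1 line was below FL by 0.22 ± 0.04 (adjusted p = 0.00237), below ΔSAP by 0.24 ± 0.04 (adjusted p = 0.0016), and differed from control by -0.21 ± 0.04 (adjusted p = 0.00421). After median centring of the arrays the difference from FL was 0.17 and no longer passed (limma adjusted p = 0.0259), nor did that from control (0.012). With only the 6 arrays of each pair in the fit, none of the 3 calls passed (limma adjusted p = 0.0162 against FL, 0.013 against ΔSAP and 0.0319 against control). Leaving out FL replicate 3, mutB1 replicate 2 or mutB1 replicate 3 also ended the FL call (limma adjusted p between 0.0104 and 0.0112). The control call also ended without control replicate 1, control replicate 2, mutB1 replicate 2 or mutB1 replicate 3 (0.017 to 0.0207).

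**Figure D2:**
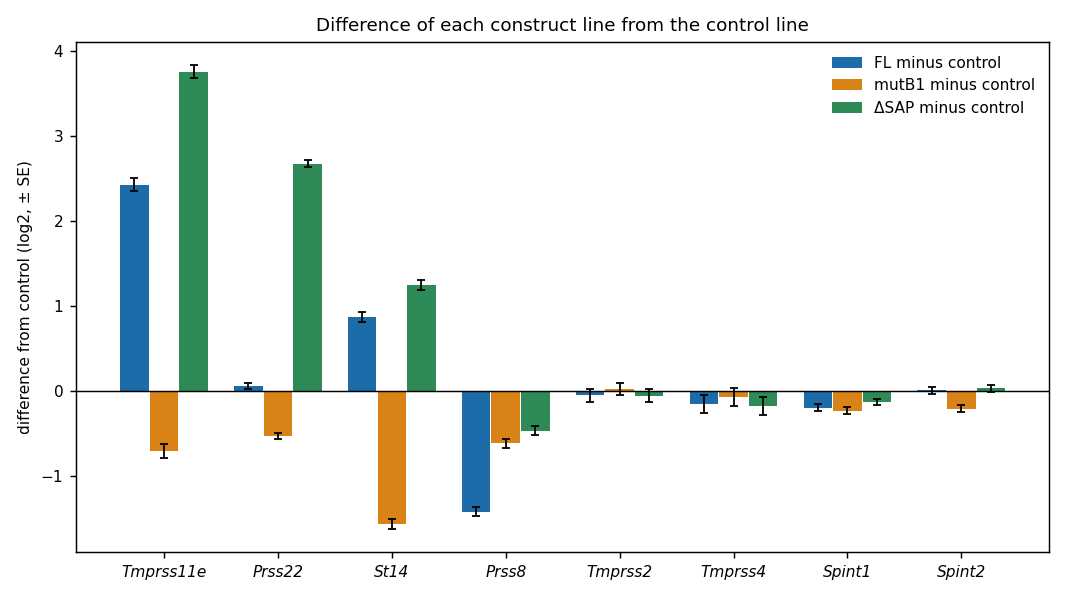
Difference of FL, mutB1 and ΔSAP from the control line in log2 units for the 8 genes, with bars for the differences of line means and error bars for the SE of the limma fit. Tmprss11e reaches 3.76 in ΔSAP and St14 falls to -1.57 in mutB1, Prss8 lies below 0 in all 3 construct lines, and the inhibitors stay within 0.24 of 0.

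The upstream sequences of the inhibitors are shown because these are the 2 members with a sequence in the promoter table whose level passed a test. Of the 8 genes, Spint1, Spint2 and Tmprss2 matched RefSeq's promoter table (GRCm38.p6). The 250 bases before the annotated start are given 5′ to 3′ on the gene's strand, in lower case, with any E2-box (CAGGTG or, on the other strand, CACCTG), the hexamer that Zeb and Snail repressors bind, in capitals. The coordinates are chr2:119237110-119237359, plus strand, for Spint1 and chr7:29281978-29282227, minus strand, for Spint2.
Spint1: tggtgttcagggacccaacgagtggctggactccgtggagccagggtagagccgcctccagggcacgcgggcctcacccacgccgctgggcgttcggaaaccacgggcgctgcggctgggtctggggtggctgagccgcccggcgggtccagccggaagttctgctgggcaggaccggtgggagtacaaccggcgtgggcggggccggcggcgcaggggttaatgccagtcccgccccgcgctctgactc
Spint2: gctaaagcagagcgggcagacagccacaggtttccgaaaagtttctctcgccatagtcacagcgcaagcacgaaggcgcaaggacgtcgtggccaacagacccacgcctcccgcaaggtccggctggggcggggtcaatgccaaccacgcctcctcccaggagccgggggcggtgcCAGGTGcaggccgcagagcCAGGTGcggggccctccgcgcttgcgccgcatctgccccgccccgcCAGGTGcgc
The Spint2 sequence holds 3 E2-boxes, all reading CAGGTG on the gene's strand and beginning 74, 55 and 9 bases before the start, and the Spint1 and Tmprss2 sequences hold 0. Of all 32851 promoters in the table, 17.2% held at least 1 E2-box in the same 250 bases and 0.247% held 3 or more. The cutoff of 3 equals the Spint2 count and was not planned beforehand, so the 0.247% is a description and not a test. The CArG box, the motif of serum response factor, and the Grainyhead-like motif AACCGGTT, searched on both strands, were found in none of the 3 sequences, against 1.47% and 0.116% of all promoters. The GC content was 72.8% for Spint1 and 69.6% for Spint2. A match is a run of letters and not a shown binding site.

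Tmprss2 and Tmprss4, transmembrane proteases of luminal and other epithelia, had signal within the range of the tissue-restricted genes in every line. For Tmprss2 (probe set 10441254) the values ran from 5.16 to 5.37 in control, 5.17 to 5.26 in FL, 5.14 to 5.41 in mutB1 and 5.15 to 5.27 in ΔSAP. For Tmprss4 (probe set 10593035) they ran from 5.89 to 5.96, 5.68 to 5.85, 5.75 to 5.99 and 5.49 to 5.93 in the same order. The lines overlapped for both genes, apart from Tmprss4 in control and FL. No comparison passed in limma, with adjusted p of 0.492 to 0.973 for Tmprss2 and 0.286 to 0.924 for Tmprss4. Between FL and mutB1 the 95% interval was -0.24 to 0.09 for Tmprss2 and -0.31 to 0.16 for Tmprss4. RMA values carry no detection call, and signal at this level may be background, so a difference in RNA could be larger than these intervals.

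Read by comparison, the 6 tested genes divided as follows, with a call at a limma adjusted p of at most 0.01 and no minimum fold. St14 and Spint2 were higher and Prss8 was lower in FL than in mutB1, 3 of 6, where 17.8% of all 34760 probe sets were called. St14 and Prss8 were lower in FL than in ΔSAP, 2 of 6 against 11.4% of all. Against control, FL had St14 higher and Prss8 and Spint1 lower, 3 of 6 against 20.0%. In mutB1, St14, Prss8, Spint1 and Spint2 were all lower than in control, 4 of 6 against 12.7% in either direction and 6.89% lower, and the count was 2 without control replicate 1, without mutB1 replicate 3, or with only the 6 arrays of these lines in the fit. ΔSAP had St14 higher and Prss8 lower than control, 2 of 6 against 14.8%, and St14 and Spint2 higher than mutB1, 2 of 6 against 15.1% (1 of 6 with only the 6 arrays of these lines). The median change of the 6 was between -0.22 (mutB1 against control) and 0.12 (ΔSAP against mutB1), and that of all probe sets between -0.03 and 0.03. These comparisons share arrays and are not independent of each other. The 6 genes were chosen with earlier results of these data known, so the counts are not those of an unselected set. The shares of all probe sets also include probe sets near background, where differences may be hidden.

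Levels of epithelial marker genes also differed between the lines. The mean over 8 markers (Krt7, Krt8, Krt18, Krt19, Cdh1, Epcam, Cldn3 and Cldn4) was 10.59 to 10.64 in the control arrays, 10.71 to 10.75 in FL, 9.23 to 9.26 in mutB1 and 11.32 to 11.36 in ΔSAP. In mutB1 against control 7 of the 8 were lower and 0 higher, against 6.89% and 5.83% of all probe sets. In ΔSAP against control 6 were higher and 0 lower, against 6.96% and 7.83%. Such shares include probe sets near background, where differences may be hidden, so they are a rough guide. In FL against control 4 were higher and 2 lower (9.61% and 10.4% of all), with a median change of 0.12. In that comparison St14 rose by 0.87, Cdh1 by 0.65 and Krt19 by 0.61, while Krt8 and Krt18 changed by -0.27 and -0.33. In these bulk samples fewer cells of a type and less RNA per cell cannot be told apart. Of 8 fibroblast markers 3 passed in some comparison (31.7% of all probe sets did). These were Pdgfra, with means of 10.76 (control), 9.38 (FL), 10.87 (mutB1) and 9.74 (ΔSAP), Fbln1, with 6.99, 7.98, 9.60 and 8.06 in that order, and Dcn. The mean over the list was 7.09 to 7.14 in the mutB1 arrays and 6.61 to 6.86 in all others. In mutB1 against control, however, Fbln1 was the 1 marker of 8 called higher (5.83% of all probe sets were). The median change of the list there was -0.04. The part of these markers in the results for the proteases was not tested.

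**Figure D3:**
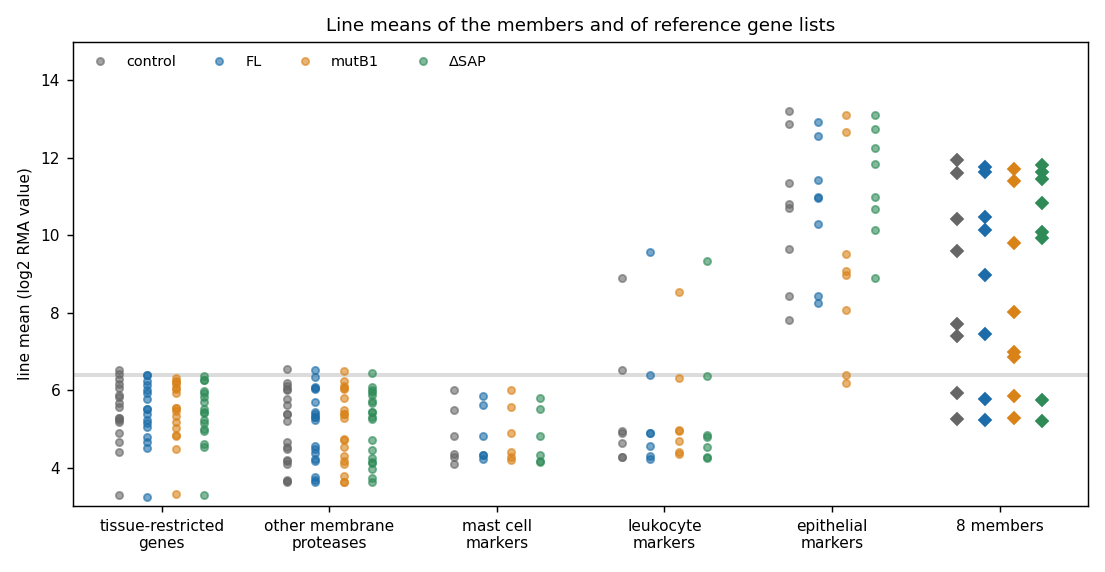
Line means in log2 RMA units, with 1 point per gene and line, for tissue-restricted genes, other membrane-anchored serine proteases, mast cell, leukocyte and epithelial markers, and the 8 genes (diamonds); the grey band spans the array medians. The tissue-restricted genes reach 6.51 and the other membrane proteases 6.55, and Tmprss2 and Tmprss4 are the diamonds below the band.

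The genes whose values ran closest to each member were found by centring every gene on its own mean and taking the root mean square (RMS) difference over the 12 arrays, among 966 other genes whose line means spanned at least 1. For St14 these were Krt19, a keratin of simple epithelia (RMS difference 0.115), the desmosomal plakophilin Pkp2 (0.123), E-cadherin (Cdh1, 0.125), Samd12 (0.157) and Ttc9 (0.177). The Cdh1 means were 9.65 (control), 10.30 (FL), 8.08 (mutB1) and 10.69 (ΔSAP). Krt19, Cdh1 and 6 other genes also make up the epithelial marker list. For Prss8 the closest were Fndc10 (0.0823), the vitamin D receptor Vdr (0.0885), the matrix protein Npnt (0.0922), Eya2 (0.133) and the adducin Add3 (0.133).

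For Tmprss11e the closest genes were Macc1 (0.361), Mal2 (0.363), the tight junction claudin Cldn9 (0.367), Dynap (0.51) and the desmosomal cadherin Dsg2 (0.516). For Prss22 they were Mid2 (0.288), Tbc1d30 (0.291), the myosin Myo5b (0.358), Sh2d1b1 (0.372) and the receptor Erbb3 (0.401). No gene was among the 5 closest of more than 1 member. The values were not scaled, and the line means spanned 4.47 for Tmprss11e, 3.21 for Prss22, 2.81 for St14 and 1.42 for Prss8. Shared genes were therefore unlikely from the start, and their lack is not read as a result. A larger span of a member gives more room for difference, so the distances are not compared between members.

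**Figure D4:**
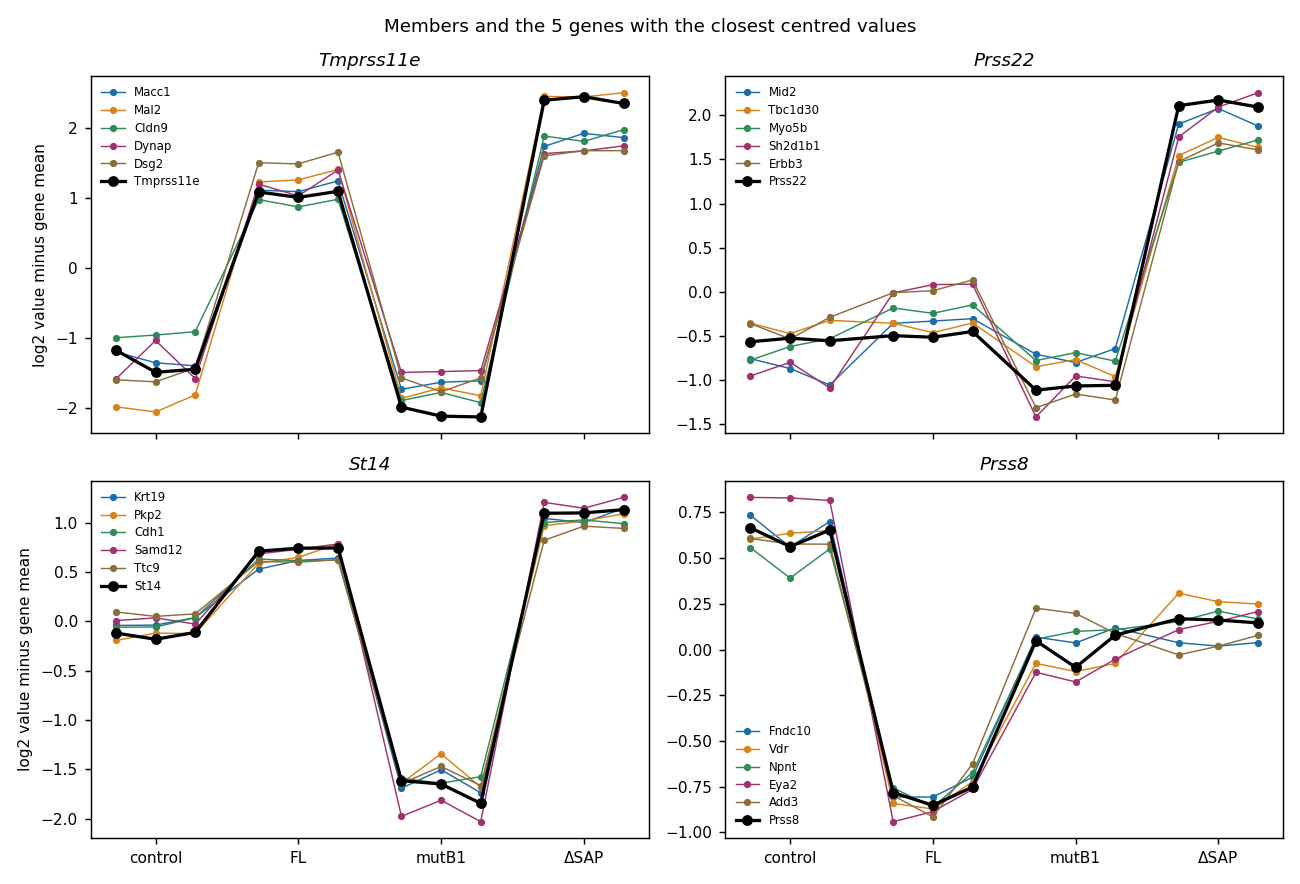
Log2 value minus the gene's mean over 12 arrays for Tmprss11e, Prss22, St14 and Prss8 (black) and the 5 genes closest to each (colours), with 3 arrays per line along the x axis. St14 and its 5 genes are lowest in mutB1 and highest in ΔSAP, and Prss8 and its 5 genes are highest in control and lowest in FL.

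Of 19 other membrane-anchored serine proteases measured, 18 passed in none of the 6 comparisons. The line means of the list, 3.62 to 6.55, lay almost wholly within the range of the tissue-restricted genes, so signal near background may hide differences, and the count is not set against that of all probe sets. The exception was Tmprss11f, a relative of Tmprss11e in the same gene cluster. Its values were 4.52 ± 0.09 (SD, n = 3) for control, 5.30 ± 0.20 for FL, 4.72 ± 0.24 for mutB1 and 5.68 ± 0.16 for ΔSAP. It was 1.16 ± 0.13 higher in ΔSAP than in control (SE, limma adjusted p = 0.000127) and 0.78 ± 0.13 higher in FL than in control (adjusted p = 0.00124). All its line means are within the range of the tissue-restricted genes, and the probes of near relatives may share signal, so the Tmprss11f values are uncertain.

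Tmprss11f lies 2 measured genes from Tmprss11e in the RefSeq gene order, with Tmprss11b between them and Tmprss11g beyond. Tmprss11b had means between 3.62 (mutB1) and 3.96 (ΔSAP) and passed in none of the comparisons, nor did Tmprss11g. On the other side of Tmprss11e, Ythdc1, a reader of RNA methylation, stood 0.31 above its mutB1 level in FL (limma adjusted p = 0.000392). It was also 0.22 higher in FL than in control (limma adjusted p = 0.00362). In ΔSAP it was 0.26 above control and 0.35 above mutB1 (limma adjusted p = 0.00173 and 0.000217). Of the 6 measured protein-coding genes nearest Tmprss11e, 3 on each side, Tmprss11f and Ythdc1 were called in some comparison (31.7% of all probe sets were). Beside Prss22, the related proteases Prss30 and Prss27 passed in none. Their means were 5.24 in control and 5.03 in ΔSAP for Prss30 and 7.06 and 6.87 for Prss27. Of the 6 genes nearest Prss22, counted in the same way, 2 were called in some comparison (31.7% of all probe sets were). These were Kctd5 and Pdpk1, both 0.18 higher in ΔSAP than in control (limma adjusted p = 0.0068 and 0.00197).

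Secreted trypsin-like and kallikrein proteases had 6 of 19 measured members called in at least 1 comparison, a share like the 31.7% of all probe sets. The study's own filters ask for an adjusted p of at most 0.01, at least 2-fold and a mean of at least 4. Of the 19 members 4 passed these filters, against 3.47% of all probe sets. The line means of the kallikrein Klk10 were 7.59 ± 0.15 for control (SD, n = 3), 9.56 ± 0.05 for FL, 6.92 ± 0.07 for mutB1 and 8.79 ± 0.14 for ΔSAP. Like Tmprss11e it was higher in FL and ΔSAP and lower in mutB1 than in control, but FL exceeded ΔSAP, by 0.77 ± 0.08 (SE, limma adjusted p = 0.000142). Neuropsin (Klk8) had means of 8.36 (control), 8.91 (FL), 6.98 (mutB1) and 9.08 (ΔSAP), and FL minus mutB1 was 1.93 ± 0.06 (limma adjusted p = 4.75e-09). Neurotrypsin (Prss12) had means of 8.77 (control), 8.05 (FL), 7.06 (mutB1) and 9.15 (ΔSAP), and mutB1 minus control was -1.71 ± 0.07 (limma adjusted p = 5.34e-08). Htra1, a secreted protease of another family, was higher than control by 1.03 ± 0.04 in FL, 0.27 ± 0.04 in mutB1 and 0.91 ± 0.04 in ΔSAP (limma adjusted p between 5.01e-08 and 0.00111).

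Among 18 measured substrates and partners, 8 were called in at least 1 comparison (31.7% of all probe sets were) and 1, Epcam, passed the design filters (3.47% of all). Epcam, an adhesion molecule that matriptase is known to cleave, had values of 8.44 ± 0.03 (SD, n = 3) for control, 8.26 ± 0.03 for FL, 6.41 ± 0.19 for mutB1 and 10.14 ± 0.06 for ΔSAP. The mutB1 mean was within the range of the tissue-restricted genes. In FL against mutB1, 5 of 18 were higher and 0 lower, against 8.82% and 9.00% of all probe sets. In ΔSAP against mutB1 6 were higher and 0 lower, where 7.07% of all were higher. The following were named after their values were seen. Plaur, the urokinase receptor, exceeded its mutB1 level in FL by 0.90 ± 0.05 (SE, limma adjusted p = 4.77e-07). Cdcp1, a membrane glycoprotein cut by serine proteases, was 0.90 ± 0.04 higher in the same comparison (limma adjusted p = 1.04e-07). The urokinase gene Plau was higher than control in all 3 construct lines, by 0.36 ± 0.04 in FL, 0.29 ± 0.04 in mutB1 and 0.49 ± 0.04 in ΔSAP (limma adjusted p between 6.71e-06 and 0.000351). The sodium channel genes Scnn1b and Scnn1g and the growth factor gene Hgf passed in none, with line means of 4.22 to 4.65, at the level of the tissue-restricted genes. The third channel gene, Scnn1a, was called once, 0.34 ± 0.07 above its mutB1 level in FL (limma adjusted p = 0.00431). The protease-activated receptor gene F2rl1 and the filaggrin gene Flg were not analysed here.

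Of 17 other measured serine protease inhibitors, 6 were called in at least 1 comparison, near the 31.7% of all probe sets, and Tfpi alone passed the design filters (3.47% of all). Tfpi, a secreted Kunitz inhibitor of the tissue factor pathway, had values of 7.18 ± 0.07 (SD, n = 3) for control, 9.07 ± 0.07 for FL, 9.05 ± 0.07 for mutB1 and 7.64 ± 0.06 for ΔSAP. Its rise over control was 1.89 ± 0.06 in FL (SE, limma adjusted p = 5.5e-09), 1.87 ± 0.06 in mutB1 (adjusted p = 5.39e-09) and 0.46 ± 0.06 in ΔSAP (adjusted p = 0.000185), so FL and mutB1, the lines that St14 separated by 2.44, stood together. The whey-acidic inhibitors Slpi and Wfdc2, named after their values were seen, were lower than control in every construct line, Slpi by -0.36 in FL, -0.28 in mutB1 and -0.28 in ΔSAP and Wfdc2 by -0.42, -0.31 and -0.35 (limma adjusted p between 1.18e-05 and 0.000489).

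Regulators of epithelial transcription and splicing were measured for 20 genes, of which 12 were called in at least 1 comparison (31.7% of all probe sets were) and 5 passed the design filters (3.47% of all); the 5 are named here after their values were seen. In FL against mutB1 8 were higher and 2 lower, against 8.82% and 9.00% of all probe sets. In mutB1 against control 2 were higher and 7 lower, against 5.83% and 6.89%. The list also holds Zeb1, Zeb2, Snai1, Snai2 and Twist1, regulators that oppose epithelial genes. The higher and lower counts therefore mix opposite roles and have no single meaning. Grhl2, a transcription factor of epithelial genes, had values of 8.37 ± 0.01 (SD, n = 3) for control, 8.22 ± 0.08 for FL, 6.30 ± 0.09 for mutB1 and 8.84 ± 0.03 for ΔSAP. Esrp1, a splicing regulator, was high in ΔSAP alone, at 8.96 ± 0.09 against 4.76 to 4.78 in the other lines, as Prss22 was. Those 3 lines and the mutB1 mean of Grhl2 lay in the range of the tissue-restricted genes, so the size of these differences is uncertain. Esrp2 and Foxa1 were lower in mutB1 than in control, by -1.08 ± 0.06 and -0.41 ± 0.07 (limma adjusted p = 3.32e-07 and 0.00288). Ovol1 was not called in that comparison (-0.15, limma adjusted p = 0.466), with both means in the range of the tissue-restricted genes, and was 1.33 ± 0.12 higher in ΔSAP than in control (adjusted p = 1.83e-05).

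**Figure D5:**
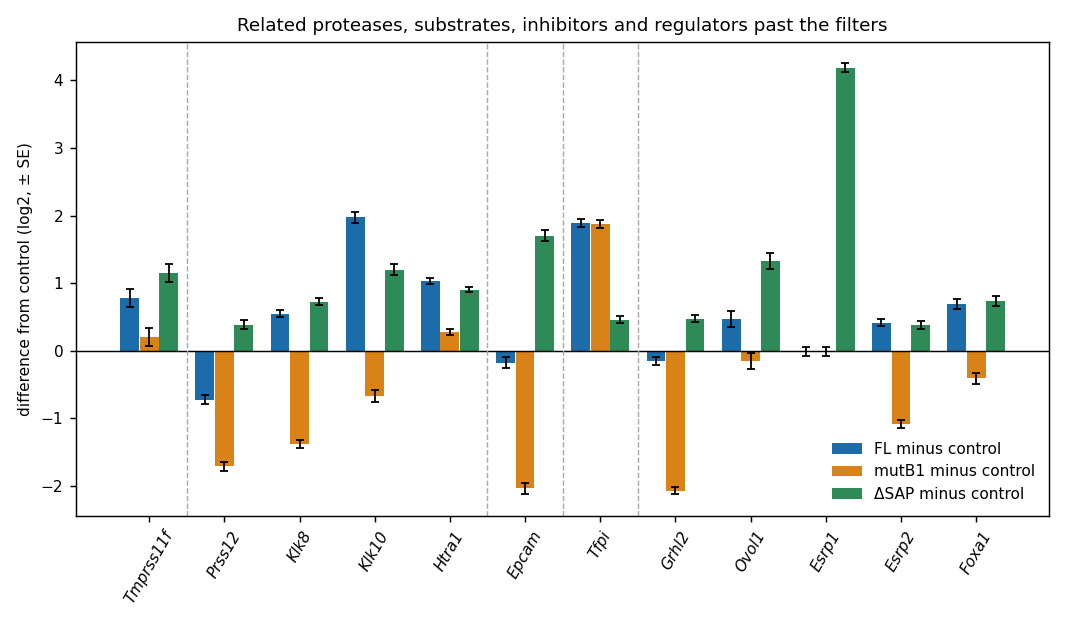
Difference of FL, mutB1 and ΔSAP from control in log2 units for the related genes past the design filters in at least 1 comparison, with bars for the differences of line means and error bars for the SE of the limma fit; dashed lines part membrane protease, secreted proteases, substrate, inhibitor and regulators. Klk10 rises by 1.97 in FL, Epcam falls to -2.03 in mutB1, Tfpi rises by 1.89 in FL and 1.87 in mutB1, and in ΔSAP Esrp1 stands 4.19 above a control mean near background.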

How the data were processed

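Each deposited value is the log2 expression of a probe set, which the authors computed by RMA (affy package), per the series design text; the submitters' processing notes name R 2.10.0. The sources used here do not state the probe set definition or genome build. Of 34760 probe sets, GEO's annotation gave 21640 a single symbol, updated through Entrez identifiers with RefSeq (GRCm38.p6, 21553 matched).

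All 12 arrays entered a single limma 3.58.1 fit (lmFit, eBayes; R 4.3.3) with 4 line means and no block, and p-values were adjusted by Benjamini-Hochberg across the 34760 probe sets. All 8 genes passed the mean of at least 4, and 6 had every line mean above the array medians. The fit was tested on simulated data.

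The members, lists and tests were chosen with earlier results of these data known. Other genes named are list members past the design filters, the 5 closest genes to a member, and, chosen after the values were seen, neighbours in the gene order, regulators and a few further list members (such as Plau, Plaur, Cdcp1, Slpi, Wfdc2 and the sodium channel genes). Alternatives covered scaling, the arrays fitted, a replicate block, low probe sets, the prior and each array left out. No array was identical to another, and no scan batch is given. Protein sequences were not used here.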

Additional observations from a re-analysis of the deposited data

How the results depend on the processing

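The 36 tests of the 6 tested genes were each rerun under the alternatives, 636 in all where the gene was kept: 613 kept their side of the threshold and direction, 22 lost the call, 1 gained it and 0 reversed. All 23 changes concerned Spint1 and Spint2. St14 and Prss8 kept every call and direction under every alternative. With only the 6 arrays of the compared lines, 2 of 6 genes were called in mutB1 against control, 1 in ΔSAP against mutB1 and 2 in FL against mutB1, and the counts over all probe sets fell from 3972 to 1715 (FL against ΔSAP), 4422 to 2624 (mutB1 against control), 5138 to 2948 (ΔSAP against control) and 5237 to 2915 (ΔSAP against mutB1). That fit has fewer arrays. Leaving out 1 array gave 2 to 4 genes called in mutB1 against control. Spint1 in ΔSAP against control passed with an intensity trend (limma adjusted p = 0.00819).

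Median centring moved the share of calls that were higher from 49.5% to 37.8% in FL against mutB1, 50.1% to 38.7% in FL against ΔSAP and 48.1% to 37.7% in FL against control. With the replicate block, 5431 in place of 6194 probe sets were called in FL against mutB1 and Spint2 lost its call in mutB1 against control (limma adjusted p = 0.0142), and no other call of the 6 genes changed. Same-numbered arrays of different lines had residual correlations of -0.20 to 0.17, over 0.1 in 2 of 18 pairs, and correlated best with their own number in 10 of 36 cases, so the numbers were not taken as pairs. Averaging the probe sets of a gene gives the same values, since each of the 8 has 1. Tmprss2 and Tmprss4 left the fit at a minimum mean of 6. Signal near background limits Tmprss2, Tmprss4, Tmprss11f, Esrp1 and Ovol1 (all but ΔSAP), and Grhl2, Krt19 and Epcam in mutB1, among others, and 3 arrays per line limit the precision.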

Other observations

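The 3 nearest measured protein-coding genes on each side of the 8 genes, in RefSeq's order, held 2 genes besides Tmprss11f that passed the design filters in some comparison, out of 48, against 3.47% of all probe sets. Ripk4, a kinase of epidermal differentiation next to Tmprss2, had means of 8.70 (control), 8.81 (FL), 7.11 (mutB1) and 8.96 (ΔSAP), and mutB1 minus control was -1.59 (limma adjusted p = 1.69e-07). Tmprss2 itself showed no such difference (5.27 in control and 5.29 in mutB1). Dll4, a Notch ligand near Spint1, had means of 8.72 (control), 8.52 (FL), 7.62 (mutB1) and 9.74 (ΔSAP), and ΔSAP minus mutB1 was 2.11 (limma adjusted p = 2.84e-08), whereas Spint1 differed by 0.10 in that comparison (adjusted p = 0.101).

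Beside Prss8, Vkorc1, which recycles vitamin K, and Bckdk, a kinase of branched-chain amino acid breakdown, were also lower in FL than in control. The changes were -0.75 (limma adjusted p = 3.63e-06) and -0.53 (adjusted p = 4.28e-06), and 10.4% of all probe sets were called lower there. The other neighbours of Prss8, Kat8, Prss36, Pycard and Trim72, did not pass in that comparison (limma adjusted p between 0.012 and 0.97). Vkorc1 and Bckdk were also lower in FL than in mutB1, by -0.60 and -0.65 (limma adjusted p = 2.63e-05 and 1.16e-06), as Prss8 was. In FL against ΔSAP Bckdk was lower as Prss8 was (-0.31, limma adjusted p = 0.00046), while Vkorc1 did not pass (-0.01, adjusted p = 0.931). These neighbours were named after their values were seen.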
